A study of Homo sapiens with 6 samples.

Results

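The genes examined were splicing factors and heterogeneous nuclear ribonucleoproteins, chosen by symbol from the protein-coding rows of the deposited table. The rule took 66 of 25808 genes and sorted them into 5 families: 21 HNRNP genes, 12 SRSF genes, 9 SF3A and SF3B genes, 12 SNRP genes and 12 PRPF genes. RNA-seq had been run on 3 libraries from HK2 cells exposed for 48 hours to 20 µM TBOEP, tris(2-butoxyethyl) phosphate, a flame retardant and plasticiser. Another 3 libraries came from HK2 cells with DMSO, the solvent, at a dose and time that the labels leave out. HK2 is 1 immortalised line of human proximal tubule cells, with no genetic change named for either group. The labels do not say whether libraries came from separate cultures, so each p-value rests on a spread between libraries that may be technical.

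Pre-mRNA splicing is carried out by the spliceosome, which assembles on each intron from small nuclear ribonucleoproteins (snRNPs). SNRP genes encode the Sm ring and other snRNP proteins, SF3A and SF3B form the part of the U2 snRNP that holds the branch point, and PRPF proteins serve mainly in the U4/U6.U5 tri-snRNP and at catalytic activation. SR proteins (SRSF) bind exonic sequences and mostly favour splice site use, whereas hnRNPs coat nascent transcripts and often oppose it, besides acting in mRNA export and stability.

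Promoter sequences are shown for the genes with the largest rises among the hnRNP and SR protein genes, HNRNPC and SRSF5, and for a pair of subunits of the same SF3B complex that were called in opposite directions, SF3B5 (lower) and SF3B6 (higher). Each is the RefSeq sequence of GRCh38.p14 from 250 bases before to 50 bases after the start, written 5′ to 3′. Capitals mark matches to CCAAT, to the ETS-type motif CCGGAAG or to TATAAA, on either strand. The windows are chr14:21269393-21269692 on the minus strand for HNRNPC, chr14:69766892-69767191 on the plus strand for SRSF5, chr6:144095524-144095823 on the minus strand for SF3B5 and chr2:24076277-24076576 on the minus strand for SF3B6.
HNRNPC: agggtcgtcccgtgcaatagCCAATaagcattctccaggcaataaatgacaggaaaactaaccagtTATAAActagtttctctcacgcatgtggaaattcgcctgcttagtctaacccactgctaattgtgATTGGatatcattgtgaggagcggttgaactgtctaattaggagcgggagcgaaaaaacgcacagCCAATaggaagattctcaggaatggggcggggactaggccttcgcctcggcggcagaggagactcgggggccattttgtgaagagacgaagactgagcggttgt
SRSF5: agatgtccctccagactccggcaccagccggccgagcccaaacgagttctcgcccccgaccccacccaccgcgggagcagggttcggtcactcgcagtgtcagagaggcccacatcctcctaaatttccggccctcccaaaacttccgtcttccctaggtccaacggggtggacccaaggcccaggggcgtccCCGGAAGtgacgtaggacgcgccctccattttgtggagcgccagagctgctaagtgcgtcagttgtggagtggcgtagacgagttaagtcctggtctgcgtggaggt
SF3B5: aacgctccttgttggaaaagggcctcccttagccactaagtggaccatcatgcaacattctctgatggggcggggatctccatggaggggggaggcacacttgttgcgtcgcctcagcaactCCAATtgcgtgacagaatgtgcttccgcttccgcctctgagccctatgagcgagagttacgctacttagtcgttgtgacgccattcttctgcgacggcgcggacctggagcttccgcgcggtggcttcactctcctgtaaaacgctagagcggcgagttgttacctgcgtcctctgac
SF3B6: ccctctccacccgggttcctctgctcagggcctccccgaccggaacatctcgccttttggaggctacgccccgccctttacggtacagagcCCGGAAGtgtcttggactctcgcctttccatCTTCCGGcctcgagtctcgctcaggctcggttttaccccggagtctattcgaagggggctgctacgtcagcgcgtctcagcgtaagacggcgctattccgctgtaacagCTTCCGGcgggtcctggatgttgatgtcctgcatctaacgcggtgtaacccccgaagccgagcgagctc
The HNRNPC window held 3 CCAAT matches and 1 TATAAA match, the SRSF5 window 1 ETS match, the SF3B5 window 1 CCAAT match and the SF3B6 window 3 ETS matches. RefSeq windows were matched for 57 of the 66 genes. CCAAT or its complement ATTGG was in 43.9% of the 57 windows and in 34.6% of all 35114 windows of the same length. CCGGAAG or CTTCCGG was in 35.1% of the 57 windows and in 10.3% of all windows, and the median GC content was 62% and 58.7%. The ETS motif was in 9 of 23 windows of genes called higher and in 6 of 11 of genes called lower. TATAAA or TTTATA was in 10.5% of the 57 and 11.5% of all windows, and the palindromic NRF1 motif was in 0 of the 57 and 1.2% of all windows. Matches of 1 motif on opposite strands can share letters. The 57 windows were of protein-coding genes, 1 per gene, whereas the set of all windows was not limited in these ways. The shares thus compare unlike sets. These are matches of letters, not sites shown to be bound.

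**Figure D1:**
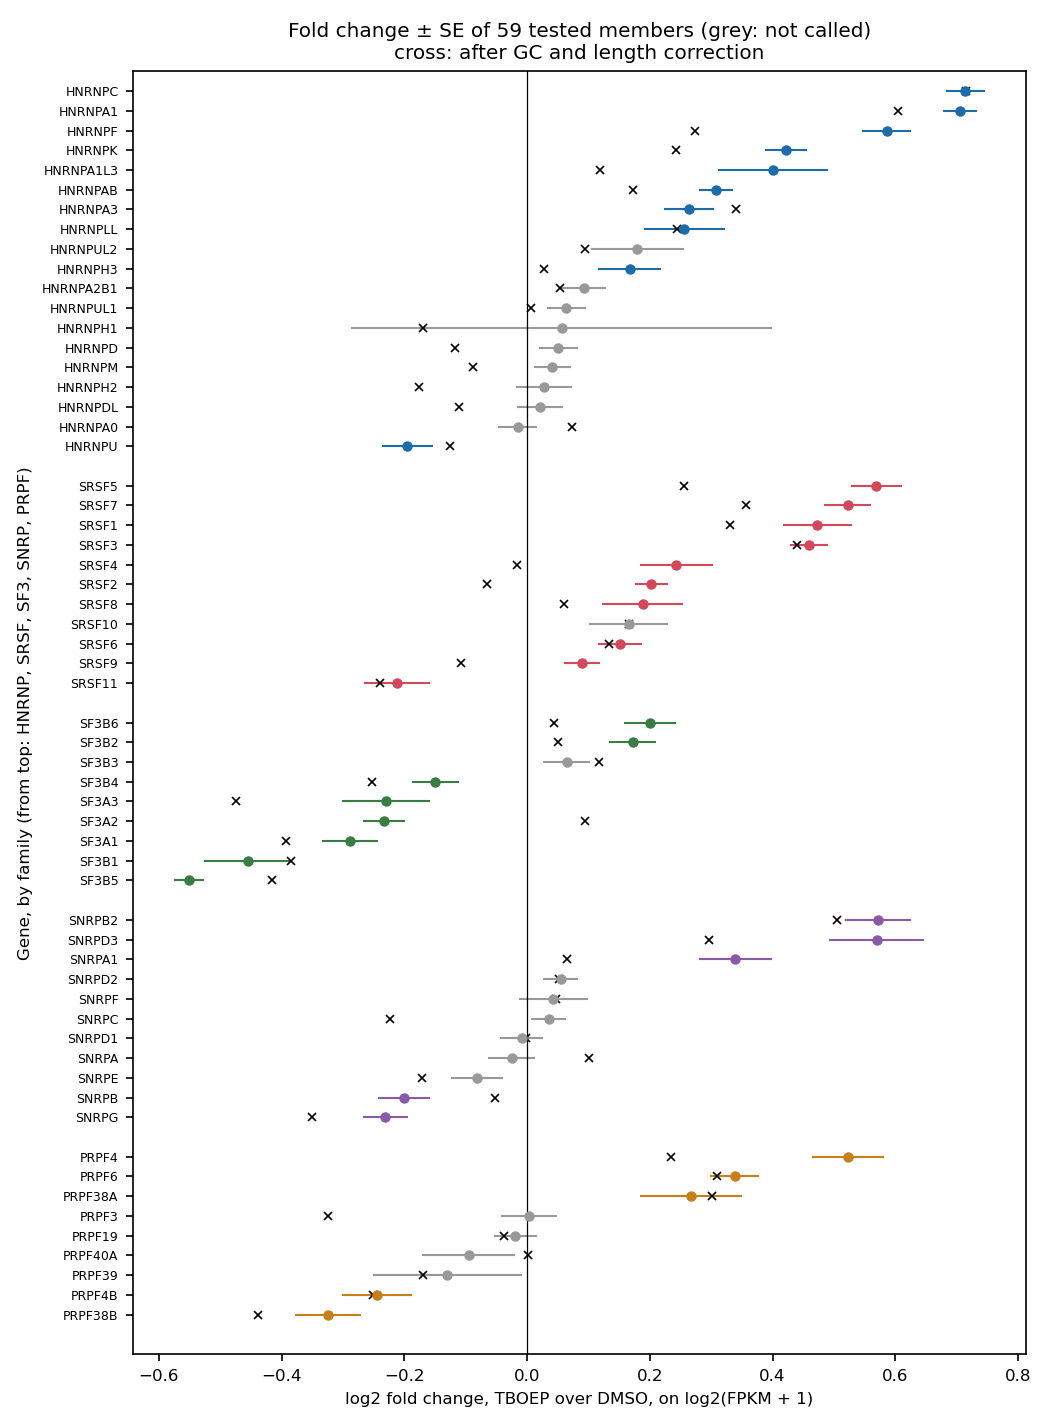
Log2 fold change (TBOEP over DMSO, on log2(FPKM + 1), horizontal axis) of the 59 tested genes, ordered within the 5 families, with the limma SE as bars. Coloured points are called at an adjusted p under 0.05, grey points are not, and crosses give the value once transcript GC and length had been fitted out; the SF3 block is the family with most points left of 0.

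After TBOEP, 9 of 11 tested SR protein mRNAs and 9 of 19 hnRNP mRNAs were called higher, 6 of 9 SF3A and SF3B mRNAs were called lower, and the snRNP and PRPF genes divided. Levels are taken as FPKM, reads scaled by library size and a gene length as the authors computed them. That length could exceed the longest coding transcript, as for HNRNPU (22512 against 6858 bases). Levels of different genes thus depend on the length used. Fold changes are on the log2(FPKM + 1) scale, on which low genes appear to change less than they do, and a gene is called at a limma adjusted p (Benjamini-Hochberg over all 9631 tested genes) under 0.05. Of the 66 genes, 59 reached 1 FPKM in at least 3 of 6 libraries and were tested. The call was higher for 26 of them, or 44.1%, where 26.9% of all tested genes were called higher. It was lower for 12, or 20.3%, where again 26.9% of all tested genes were called lower. The background was thus 53.8% in either direction, and 28.2% in each direction among protein-coding genes. The remaining 21 did not pass. No gene of the 59 changed by 2-fold: the values ran from -0.55 to 0.71 with a median of 0.06, beside a median of -0.02 over all tested genes. All 3 TBOEP libraries were above all 3 DMSO libraries in 31 of the 59 genes and below them in 12, against 30.5% and 31.8% of all tested genes. In bulk RNA, fewer cells expressing a gene and less RNA per cell cannot be told apart.

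Fold changes over the whole table went with GC content (Pearson r -0.32, Spearman rho -0.33 across 9529 genes, which share their libraries). Across the 59 genes the same values were -0.15 and -0.09. With GC content and length fitted out of each library, 21 of the 59 genes were called higher (35.6%; 20.8% of all tested genes) and 18 lower (30.5%; 23.1% of all). The calls kept were 17 of the 26 higher and 10 of the 12 lower ones. SRSF9 went from a call of higher (0.09) to lower (-0.11), and SF3A2 from lower (-0.23) to higher (0.09); both are named after their values were seen. The corrected value is given below for each called gene with a printed fold change where the correction ended the call or moved that change by over 1.5 times.

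**Figure D2:**
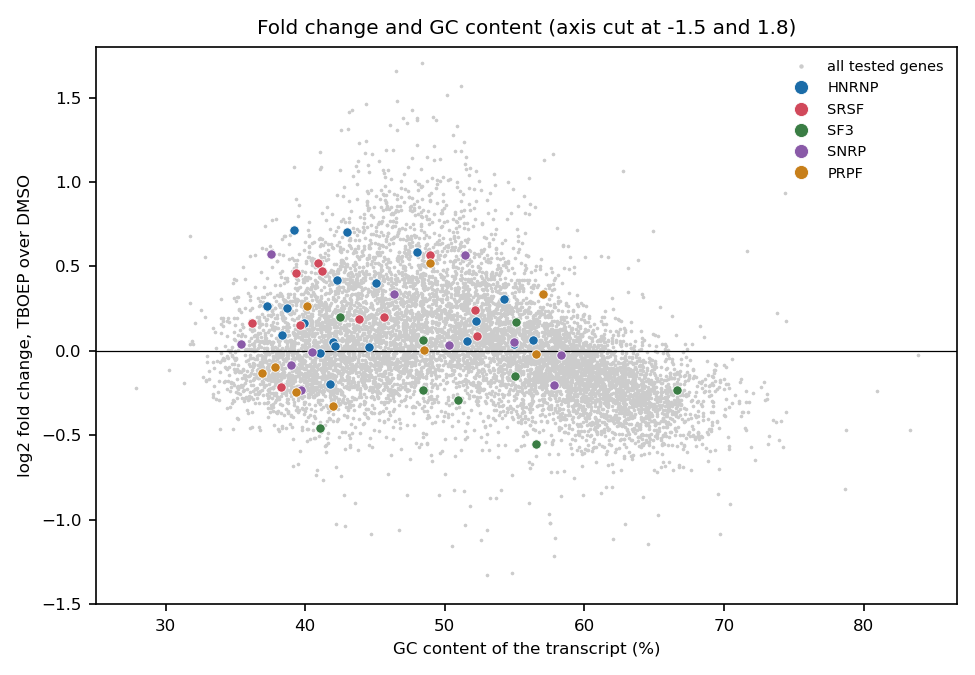
GC content of the transcript (percent, horizontal axis) against log2 fold change (vertical axis, on log2(FPKM + 1)) for all tested genes in grey and the 59 splicing genes in the colour of their family. Of the 9 splicing genes at 55% GC or more, 2 were called higher and 4 lower, beside 8.2% and 49.3% of all tested genes there. Of the 31 under 45% GC, 14 were called higher and 6 lower, beside 29.3% and 19.2% of all. At 45 to 50% GC, 6 of 9 were higher and 1 lower, beside 47.3% and 10.5% of all. At 50 to 55% GC, 4 of 10 were higher and 1 lower, beside 41.6% and 11.1% of all.

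The libraries held 32547856 to 38247579 reads behind the FPKM values, so that 1 read on 1 kb was worth 0.0261 to 0.0307 FPKM. Among proximal tubule markers PAX8 reached 1 FPKM in at least 3 libraries, and CUBN, AQP1, HNF4A, SLC34A1 and SLC5A2 did not. Of 6 epithelial markers 5 reached it, with sums of 909 to 948 FPKM in DMSO and 805 to 825 in TBOEP. COL1A1 was the 1 fibroblast gene of 2 that did, with list sums of 25.9 to 28.96 in DMSO and 22.2 to 22.4 in TBOEP. The endothelial genes PECAM1 and CDH5 and the leukocyte genes CD14 and CD68 did not, with sums of at most 0.0628 and 0.998 FPKM in any library. None of the markers named here was at 0 in all 6 libraries, and the part of these differences in the results was not tested.

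HnRNP genes showed the largest rises. Of 19 tested, 9 were called higher, 1 lower and 9 did not pass, with a median of 0.17, and after the correction 7 were higher and 5 lower. HNRNPC (ENSG00000092199), which binds uridine tracts in nascent transcripts, was at 89.9, 89.3 and 94.9 FPKM in the DMSO libraries and at 153, 147 and 151 FPKM in the TBOEP libraries. The groups lay far apart, and the rise was 0.71 ± 0.03 (SE; limma adjusted p = 6.37e-07). HNRNPA1 (ENSG00000135486), a repressor of many splice sites that shuttles to the cytoplasm, was at 76.9, 75.3 and 78.0 FPKM in DMSO and 124, 127 and 126 FPKM in TBOEP. Its libraries were close together within each group and did not overlap, and it rose by 0.71 ± 0.03 (limma adjusted p = 2.86e-07).

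HNRNPF (ENSG00000169813), which binds G-rich tracts near splice sites, was at 110, 102 and 111 FPKM in DMSO and 166, 162 and 157 FPKM in TBOEP. Every TBOEP library was above every DMSO library, with a rise of 0.59 ± 0.04 (limma adjusted p = 5.68e-06) that was 0.27 after the correction. HNRNPK (ENSG00000165119), a binder of C-rich RNA and DNA through KH domains, was at 70.0, 67.2 and 70.3 FPKM in DMSO and 94.9, 94.7 and 89.5 FPKM in TBOEP. The groups were again apart, and the rise of 0.42 ± 0.03 (limma adjusted p = 1.54e-05) was 0.24 after the correction.

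HNRNPU (ENSG00000153187), a nuclear matrix protein also known as SAF-A, was the hnRNP gene called lower. It was at 14.1, 13.8 and 14.7 FPKM in DMSO and 12.4, 12.5 and 11.9 FPKM in TBOEP. The highest TBOEP library lay below the lowest DMSO library, and the gene fell by 0.19 ± 0.04 (limma log2 fold change -0.19, adjusted p = 0.00405), or by 0.13 after the correction. HNRNPA2B1 (ENSG00000122566), a partner of HNRNPA1 in hnRNP particles, was at 40.4, 38.9 and 42.4 FPKM in DMSO and 43.9, 42.9 and 43.0 FPKM in TBOEP. Its groups were close but did not overlap, and it did not pass at 0.09 ± 0.04 (limma adjusted p = 0.0622). It passed with limma-voom on recovered reads (adjusted p = 0.0106), with a filter at 5 FPKM (0.0432), among protein-coding genes alone (0.0479) and without DMSO replicate 3 (0.0163). The HNRNPAB gene, at the highest FPKM of the family, averaged 188 ± 0.525 FPKM in DMSO and 233 ± 6.09 FPKM after TBOEP (mean ± SD, n = 3 per group). It was called higher at 0.31 (limma adjusted p = 2.69e-05), and at 0.17 after the correction.

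Some hnRNP rows were too low or too variable to read. HNRNPL (ENSG00000104824) was listed at 0, 0.0827 and 0.00854 FPKM in DMSO and 0.0043, 0.00883 and 0.0142 FPKM in TBOEP, from 0 to 18 reads. The row of its pseudogene HNRNPLP2, 96.8% identical over 1570 bases, held 4.63, 5.05 and 4.98 FPKM in DMSO and 3.50, 3.998 and 4.23 FPKM in TBOEP. The HNRNPR row (ENSG00000125944) was listed at 0 in 5 libraries and at 0.00706 FPKM, 1 read, in TBOEP replicate 3. These genes are used in most cell types, so a listed 0 is given only as listed, and HNRNPL may share reads with its copy. HNRNPH1 (ENSG00000169045) was at 2.92, 3.56 and 2.13 FPKM in DMSO and 5.32, 2.22 and 2.09 FPKM in TBOEP, where replicate 1 stood above the other libraries.

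Near-identical copies make several hnRNP and SNRP values uncertain, because the way the authors assigned shared reads is not given in the sources used here. Of the 66 genes, 18 had another gene at 95% identity or more over at least 200 bases, and for 8 of these such a gene was at 1 FPKM or more: HNRNPC, HNRNPA1, HNRNPA1L3, HNRNPK, HNRNPA3, HNRNPL, SNRPA1 and SNRPE. HNRNPA1P7, a copy of HNRNPA1, was at 12.0, 11.2 and 11.2 FPKM in DMSO and 21.8, 25.0 and 22.6 FPKM in TBOEP. It rose by 0.95, HNRNPA1P10 by 0.73 and the HNRNPC copy HNRNPCP2 by 0.66 (limma adjusted p = 2.36e-06, 0.000137 and 0.000355). These were all the pseudogene rows called higher of 16 tested; HNRNPLP2 fell by 0.26 and SNRPEP4 by 0.38, and 11 did not pass. The pseudogenes were named for their parent genes and after their values were seen.

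**Figure D3:**
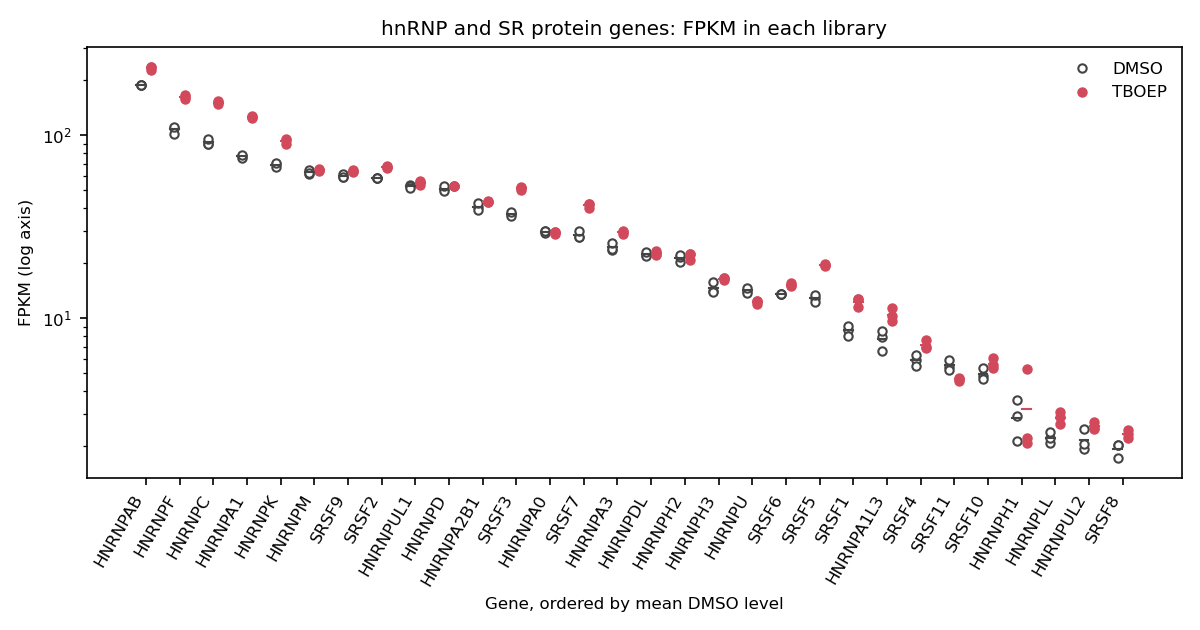
FPKM (log axis) of the tested hnRNP and SR protein genes in each of the 6 libraries, ordered by mean DMSO level, with open circles for DMSO, filled circles for TBOEP and short lines for means. HNRNPC, HNRNPA1 and HNRNPF stand clear of their DMSO values, and HNRNPH1 shows 1 TBOEP library apart at 5.32 FPKM.

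SR protein genes had the highest median of the 5 families, 0.20. Of 11 tested, 9 were called higher, 1 lower and SRSF10 did not pass (0.17, limma adjusted p = 0.057). After the correction 6 were higher and 2 lower: 5 of the 9 kept the call, and SRSF10 was newly called higher (0.17, limma adjusted p = 0.0269). With the replicate block as well, SRSF10 was not called. It passed with a filter at 5 FPKM, among protein-coding genes alone, with limma-voom, and without DMSO replicate 3 or TBOEP replicate 3. SRSF5 (ENSG00000100650), also known as SRp40, was at 12.9, 12.3 and 13.5 FPKM in DMSO and 19.4, 19.7 and 19.8 FPKM in TBOEP. The TBOEP libraries were nearly equal and all higher, a rise of 0.57 ± 0.04 (limma adjusted p = 8.75e-06) that was 0.26 after the correction. SRSF7 (ENSG00000115875), an SR protein with a zinc knuckle that also acts in mRNA export, was at 27.9, 27.8 and 29.9 FPKM in DMSO and 42.1, 41.9 and 40.3 FPKM in TBOEP. The groups did not overlap, and it rose by 0.52 ± 0.04 (limma adjusted p = 8.96e-06).

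SRSF3 (ENSG00000112081), the smallest classical SR protein and a partner of SRSF7 in export, was at 37.1, 36.2 and 38.0 FPKM in DMSO and 51.6, 51.9 and 50.5 FPKM in TBOEP. Its libraries fell into separate groups, and it rose by 0.46 ± 0.03 (limma adjusted p = 5.79e-06). SRSF1 (ENSG00000136450), the founding SR protein and a known proto-oncogene, was at 8.62, 8.06 and 9.11 FPKM in DMSO and 12.7, 12.7 and 11.5 FPKM in TBOEP. All TBOEP libraries were higher, and it rose by 0.47 ± 0.06 (limma adjusted p = 0.000148). Its exons overlapped another gene on the same strand over 56.6% of their bases in GENCODE 29, so its level is uncertain.

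SRSF2 (ENSG00000161547), also known as SC35 and mutated in some leukaemias, was at 58.1, 58.5 and 58.3 FPKM in DMSO and 67.5, 66.0 and 68.2 FPKM in TBOEP. The groups did not overlap and it rose by 0.20 ± 0.03 (limma adjusted p = 0.000312), but the value was -0.066 after the correction and not called (adjusted p = 0.0909). Other genes on either strand covered 36.7% of its exon bases, 3.3% on the same strand, and whether strand was used is not known. SRSF11 (ENSG00000116754), an SR-like protein of the p54 type, was the member of the family called lower. It was at 5.45, 5.25 and 5.90 FPKM in DMSO and 4.52, 4.74 and 4.66 FPKM in TBOEP. Its TBOEP libraries were all below DMSO, and it fell by 0.21 ± 0.05 (limma log2 fold change -0.21, adjusted p = 0.0097). SRSF4 (0.24) and SRSF8 (0.19) were not called after the correction (-0.02 and 0.06). SRSF8 and SRSF9 (0.09) lost their calls with the replicate number as a block, and SRSF6 (0.15) with them under median centring.

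SF3A and SF3B genes, subunits of the U2 snRNP, had the lowest median of the 5 families, -0.23. Of 9 tested, 6 were called lower, 2 higher and SF3B3 did not pass, and after the correction 5 were lower and 2 higher. SF3B5 (ENSG00000169976), a small subunit next to SF3B1 and SF3B3, had the highest FPKM of all 66 genes. It was at 795, 808 and 822 FPKM in DMSO and 545, 555 and 554 FPKM in TBOEP. All TBOEP libraries were far below DMSO, and it fell by 0.55 ± 0.02 (limma log2 fold change -0.55, adjusted p = 6.37e-07). The rank depends on the length used: SNRPB held 31766 to 36279 reads in DMSO over 5153 bases. SF3B5 held 18701 to 20975 reads over 690 bases. SF3B1 (ENSG00000115524), the scaffold that clamps the branch helix and a target of splicing inhibitors, was at 5.96, 6.02 and 6.68 FPKM in DMSO and 4.65, 4.39 and 3.80 FPKM in TBOEP. The groups did not overlap, and it fell by 0.45 ± 0.07 (limma log2 fold change -0.45, adjusted p = 0.000755).

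SF3A1 (ENSG00000099995), the largest SF3A subunit, which contacts U1 snRNA through its C-terminal end, was at 15.8, 16.6 and 17.3 FPKM in DMSO and 13.7, 13.6 and 12.8 FPKM in TBOEP. The TBOEP libraries were all lower, and it fell by 0.29 ± 0.05 (limma log2 fold change -0.29, adjusted p = 0.000823). SF3B6 (ENSG00000115128), also known as p14 and bound to SF3B1, was at 198, 181 and 201 FPKM in DMSO and 221, 229 and 217 FPKM in TBOEP. Here TBOEP was higher in every library, a rise of 0.20 ± 0.04 (limma adjusted p = 0.00396), which the correction brought to 0.04 (adjusted p = 0.354). SF3B2 (ENSG00000087365), a large subunit also known as SAP145, was at 18.2, 18.2 and 18.3 FPKM in DMSO and 19.8, 21.2 and 21.0 FPKM in TBOEP. It too was higher in every TBOEP library, a rise of 0.17 ± 0.04 (limma adjusted p = 0.00494) that was 0.05 after the correction (adjusted p = 0.28). Both rises in the family thus ended under the correction, and of its 6 falls, that of SF3A2 turned. The 2 genes called higher after it were SF3A2 and SF3B3 (0.12). SF3A3 was at -0.23, or -0.47 after the correction, and lost its call in the fits lacking DMSO replicate 1, DMSO replicate 3, TBOEP replicate 1 or TBOEP replicate 2.

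SNRP genes were called in both directions. Of 11 tested, 3 were called higher, 2 lower and 6 did not pass, with a median of 0.04, and after the correction 3 were higher and 3 lower. Of the first calls, 2 higher and 1 lower were kept. SNRPB2 (ENSG00000125870), the U2-B″ protein that binds a stem loop of U2 snRNA, was at 36.2, 34.6 and 39.8 FPKM in DMSO and 53.2, 58.0 and 54.6 FPKM in TBOEP. It was higher in every TBOEP library, by 0.57 ± 0.05 (limma adjusted p = 4.27e-05). SNRPA1 (ENSG00000131876), the U2-A′ protein and its binding partner, was at 10.8, 12.2 and 11.7 FPKM in DMSO and 14.8, 16.0 and 14.1 FPKM in TBOEP. The groups did not overlap, and the rise of 0.34 ± 0.06 (limma adjusted p = 0.00136) became 0.07 after the correction (adjusted p = 0.423).

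Sm ring genes, whose proteins form the heptamer around snRNA, differed among themselves. SNRPD3 (ENSG00000100028), encoding SmD3, was at 3.30, 2.61 and 3.02 FPKM in DMSO and 4.75, 4.61 and 5.31 FPKM in TBOEP, the lowest level of the tested SNRP genes, from 171 to 338 reads. All TBOEP libraries were higher, and it rose by 0.57 ± 0.08 (limma adjusted p = 0.000313), or 0.30 after the correction. SNRPG (ENSG00000143977), encoding SmG, was at 207, 202 and 222 FPKM in DMSO and 181, 176 and 179 FPKM in TBOEP. It was lower in all TBOEP libraries and fell by 0.23 ± 0.04 (limma log2 fold change -0.23, adjusted p = 0.000733), or by 0.35 after the correction. SNRPB (ENSG00000125835), encoding SmB and its longer form SmB′, was at 184, 190 and 171 FPKM in DMSO and 153, 157 and 163 FPKM in TBOEP. No TBOEP library reached the DMSO range, and it fell by 0.20 ± 0.04 (limma log2 fold change -0.20, adjusted p = 0.0038), though the corrected value was -0.05 (adjusted p = 0.203).

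The other Sm genes did not pass: SNRPD1 was at -0.01, SNRPD2 at 0.05, SNRPE at -0.08 and SNRPF at 0.04. SNRPE, at a mean of 153 FPKM in DMSO and 145 in TBOEP, was called lower after the correction. Its value is uncertain because of its near-identical copy SNRPEP4. That copy was at 103, 108 and 102 FPKM in DMSO and 86.7, 67.8 and 85.7 FPKM in TBOEP. SNRPN (ENSG00000128739), an imprinted gene for an SmB-like protein made mainly in the brain, was at 0.115, 0.0787 and 0.0976 FPKM in DMSO and 0.278, 0.160 and 0.252 FPKM in TBOEP, from 9 to 34 reads. The TBOEP libraries were above DMSO, but the gene was under the filter and was not tested, and 33.6% of its exon bases lie in SNURF on the same strand.

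**Figure D4:**
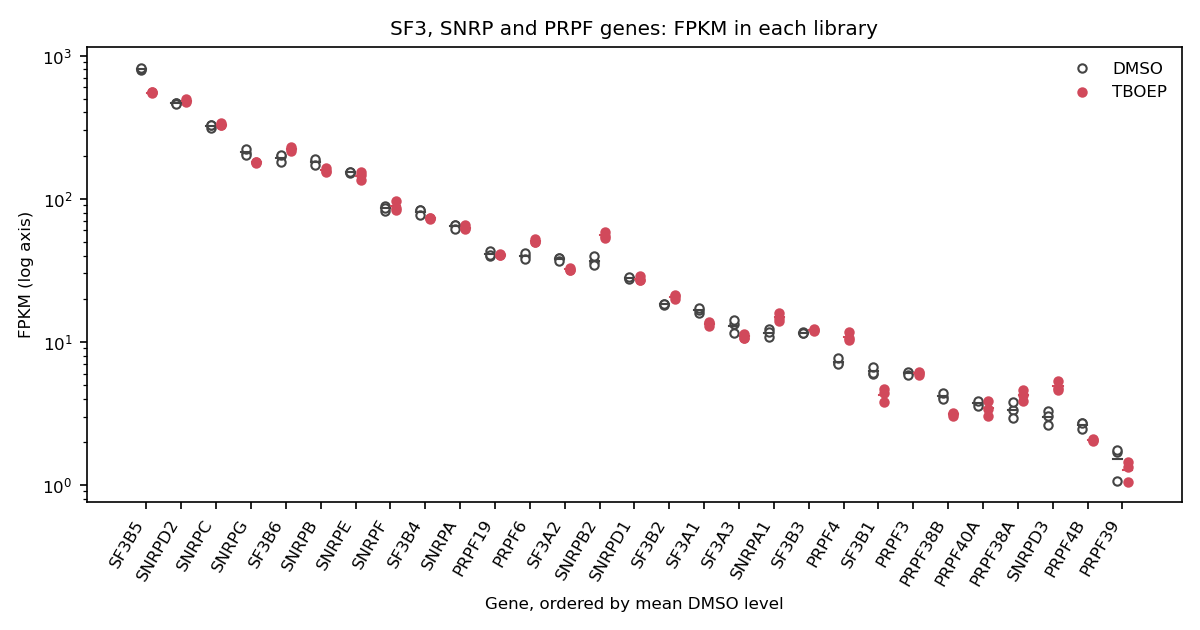
FPKM (log axis) of the tested SF3, SNRP and PRPF genes in each of the 6 libraries, ordered by mean DMSO level, with open circles for DMSO, filled circles for TBOEP and short lines for means. SF3B5 leads at 808 FPKM in DMSO and 551 in TBOEP, while SNRPB2, PRPF4 and SNRPD3 lie higher in TBOEP.

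PRPF genes were also divided, with 3 of 9 tested called higher, 2 lower and 4 not passing, and a median of -0.02. After the correction 3 were higher and 3 lower. PRPF4 (ENSG00000136875), a WD-repeat protein of the U4/U6 snRNP, was at 7.07, 7.01 and 7.69 FPKM in DMSO and 11.7, 10.6 and 10.3 FPKM in TBOEP. It was higher in every TBOEP library, by 0.52 ± 0.06 (limma adjusted p = 9.23e-05), or 0.23 after the correction. PRPF3, its partner in the U4/U6 snRNP, did not pass at 0.00 (adjusted p = 0.956) and was called lower, at -0.32, after the correction.

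PRPF6 (ENSG00000101161), a bridge between U5 and U4/U6 in the tri-snRNP, was at 39.6, 41.8 and 38.1 FPKM in DMSO and 49.9, 49.9 and 52.0 FPKM in TBOEP. No library of one group reached the other, and it rose by 0.34 ± 0.04 (limma adjusted p = 0.000123). PRPF38A (ENSG00000134748), needed for activation of the spliceosome, was at 3.33, 2.94 and 3.79 FPKM in DMSO and 3.86, 4.58 and 4.26 FPKM in TBOEP. Its highest DMSO and lowest TBOEP libraries nearly met, and the rise of 0.27 ± 0.08 (limma adjusted p = 0.0239) lost its call when DMSO replicate 1 or 2, or TBOEP replicate 2 or 3, was removed (0.056 to 0.078 after adjustment). The call also ended with no filter on low values (0.113) and with median centring (0.0577).

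PRPF38B (ENSG00000134186), a paralogue of PRPF38A, was at 4.14, 3.95 and 4.39 FPKM in DMSO and 3.18, 3.14 and 3.03 FPKM in TBOEP. It was lower in all TBOEP libraries and fell by 0.32 ± 0.05 (limma log2 fold change -0.32, adjusted p = 0.00107). PRPF4B (ENSG00000112739), a kinase that phosphorylates PRPF6, was at 2.70, 2.46 and 2.73 FPKM in DMSO and 2.08, 2.03 and 2.07 FPKM in TBOEP. The groups did not overlap, and it fell by 0.24 ± 0.06 (limma log2 fold change -0.24, adjusted p = 0.00676). PRPF19 (ENSG00000110107), a ubiquitin ligase of the activated spliceosome, was at 40.0, 43.0 and 40.5 FPKM in DMSO and 40.5, 40.8 and 40.6 FPKM in TBOEP. Its groups overlapped and it did not pass at -0.02 ± 0.03 (limma adjusted p = 0.663). PRPF18, PRPF31 and PRPF40B were under the filter, between 0.126 and 0.736 FPKM. PRPF8 was not among the 12 PRPF genes that the rule found, and why was not examined.

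Summed over its members, each family gives a level that its genes of high FPKM decide, and that depends on the gene lengths used. The hnRNP sum was 882 ± 14.9 FPKM in DMSO and 1131 ± 7.52 in TBOEP (mean ± SD, n = 3 per group), a ratio of 1.28. The SRSF sum was 238 ± 3.28 and 292 ± 1.34 FPKM, a ratio of 1.23, and the libraries of the groups did not overlap in either family. The SF3 sum was 1186 ± 15.5 FPKM in DMSO and 940 ± 8.98 FPKM in TBOEP, a ratio of 0.792. Without SF3B5 the SF3 ratio was 1.03, so the lower sum rested on that gene. The SNRP sum was 1561 ± 6.1 and 1549 ± 29.3 FPKM, with overlapping libraries, and the PRPF sum 111 ± 1.87 and 124 ± 0.391 FPKM, a ratio of 1.11 that was 1.03 without PRPF6. No test was made of these sums.

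**Figure D5:**
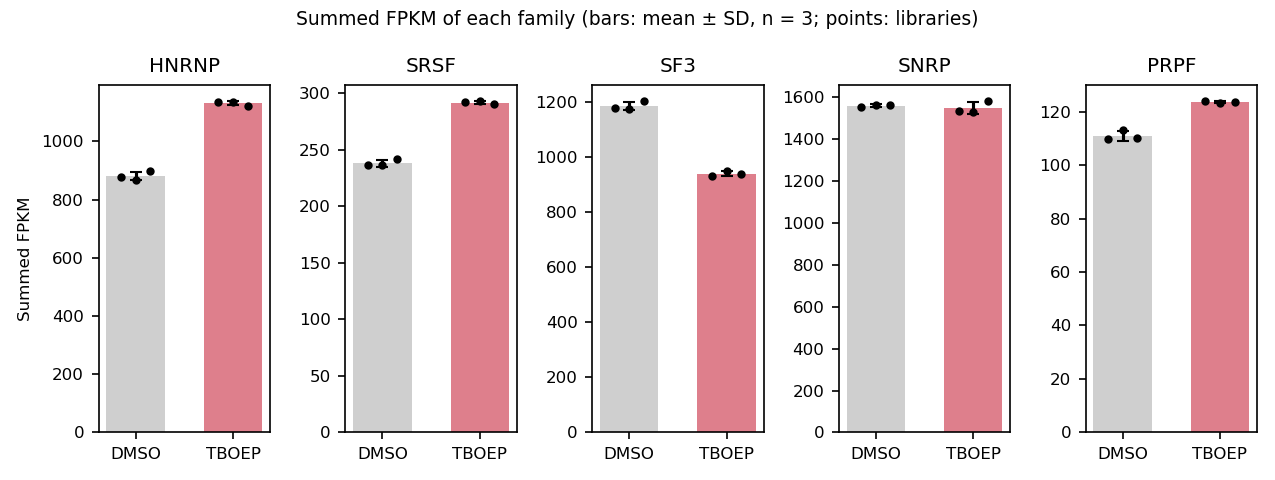
Summed FPKM of each family (vertical axis from 0, one scale per panel), with bars for the mean of 3 libraries, error bars for the SD and points for single libraries. The HNRNP and SRSF sums are higher in TBOEP, the SF3 sum is lower (940 against 1186 FPKM) and the SNRP sums overlap.

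Genes that work beside these families showed both directions too. Over all tested genes, 26.9% were called in each direction, and 20.8% were higher and 23.1% lower after the correction. Of 10 tested genes of SMN-dependent snRNP assembly, 7 were called higher, 0 lower and 3 did not pass, with a median of 0.18. Only 11 of the 13 genes listed were found, without SMN1 and SMN2 themselves. CLNS1A, which presents Sm proteins for assembly, was at 8.95, 8.94 and 10.03 FPKM in DMSO and 14.996, 14.9 and 14.6 FPKM in TBOEP, a rise of 0.62 ± 0.05 (limma adjusted p = 1.52e-05). PRMT5, which methylates Sm proteins, rose by 0.50 ± 0.06 (limma adjusted p = 8.74e-05), or 0.23 after the correction. After the correction 3 of the 10 were higher and 1 was lower, with a median of 0.01.

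In the branch point and 3′ splice site list, which acts beside SF3A and SF3B, 1 of 11 tested genes was called higher, 7 lower and 3 did not pass, with a median of -0.20. U2AF2, the large subunit of the polypyrimidine tract factor, was at 210, 220 and 215 FPKM in DMSO and 180, 180 and 179 FPKM in TBOEP. It fell by 0.26 ± 0.03 (limma log2 fold change -0.26, adjusted p = 5.89e-05), and by 0.12 after the correction. PHF5A, a further subunit of SF3B, was at 156, 156 and 158 FPKM in DMSO and 140, 135 and 135 FPKM in TBOEP, and fell by 0.20 ± 0.03 (limma log2 fold change -0.20, adjusted p = 0.000321). After the correction 5 of the list were lower and 1 higher, and PHF5A was at -0.49.

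Among kinases of SR proteins and SR-related proteins, 4 of 20 tested genes were called higher, 10 lower and 6 did not pass, with a median of -0.18 and the same counts after the correction. TRA2B, a partner of SR proteins at exonic enhancers, was at 14.9, 14.4 and 15.4 FPKM in DMSO and 21.9, 22.7 and 21.3 FPKM in TBOEP, a rise of 0.53 ± 0.04 (limma adjusted p = 1.2e-05) that was 0.34 after the correction. PNN, a speckle protein of the exon junction periphery, was at 10.9, 10.2 and 12.1 FPKM in DMSO and 6.19, 6.75 and 5.83 FPKM in TBOEP. Its groups were well apart, and it fell by 0.73 ± 0.07 (limma log2 fold change -0.73, adjusted p = 3.88e-05). The SRSF genes and this list of partners thus had medians of opposite sign, 0.20 and -0.18, a difference that was not tested.

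In the list of tri-snRNP, PRPF19 complex and catalytic step factors, 10 of 22 tested genes were called higher, 3 lower and 9 did not pass, with a median of 0.11, and 10 were higher and 8 lower after the correction. CTNNBL1, a protein bound to the PRPF19 complex, was at 9.40, 9.70 and 8.95 FPKM in DMSO and 20.5, 21.6 and 20.7 FPKM in TBOEP. It rose by 1.08 ± 0.04 (limma adjusted p = 3.39e-07), past 2-fold, as no tested gene of the 5 families did. The corrected value, 0.81, was under 2-fold. USP39, a tri-snRNP protein, was at 12.7, 12.4 and 12.9 FPKM in DMSO and 24.5, 24.9 and 25.7 FPKM in TBOEP, a rise of 0.93 ± 0.04 (limma adjusted p = 3.26e-07) that was 0.61 after the correction.

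The other lists were smaller or more mixed. For SNRNP genes and for exon junction complex genes, 28.6% were called higher and 14.3% lower, beside 26.9% of all tested genes each way. Of 7 SNRNP genes, 2 were called higher and 1 lower (median 0.01): SNRNP40 of the U5 snRNP rose by 0.55 and SNRNP27 of the tri-snRNP by 0.27, or 0.24 and 0.16 after the correction. The corrected counts were 4 higher and 0 lower (median 0.16), and SNRNP70, the gene called lower at -0.16, was then called higher at 0.16. Of 9 LSM genes, which form rings on U6 snRNA or decaying mRNA, 2 were called higher and 4 lower (median -0.10). LSM7 fell by 0.57, or by 0.22 after the correction, and LSM1 rose by 0.40 but was at 0.11 and not called after it, when 0 of the list were higher and 3 lower (median -0.01). Of 10 helicases 3 were called higher and 2 lower (median 0.03), among them DDX41, which rose by 0.55, and DDX23, which rose by 0.30 and lost its call under the correction (0.09). With the correction 2 helicases were higher and 4 lower (median -0.05).

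Of 7 exon junction complex genes, 2 were called higher and 1 lower (median 0.07), SAP18 rising by 0.71 and RBM8A, also known as Y14, by 0.33. The correction turned this balance to 2 higher and 3 lower (median -0.03). Of 31 other regulators of alternative splicing, 8 were called higher and 6 lower (median 0.00). These shares, 25.8% and 19.4%, stood beside 26.9% of all tested genes in each direction. The cold-induced protein RBM3 rose by 0.61, or 0.32 after the correction, and RALY, an hnRNP C-like protein, fell by 0.26. Here too the balance turned, to 6 higher and 11 lower (median -0.06). Of 11 genes of snRNA transcription and nonsense-mediated decay, 1 was called higher and 6 lower (median -0.12). UPF3B, a decay factor bound to exon junctions, fell by 0.41, and SNAPC2, of the snRNA promoter complex, fell by 0.44 but was at -0.10 and not called after the correction, which left 1 of the list higher and 3 lower (median -0.06).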

How the data were processed

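HK2 RNA-seq libraries, 3 with DMSO and 3 with TBOEP by their treatment label, were analysed from 1 deposited table. Per the submitters' processing notes, Trimmomatic and HISAT2 were used; no counting tool, annotation or genome build is stated there. Per the labels' protocols, RNA was extracted with TRIzol, and a pair of library kits is named without saying which libraries each made, so whether strand was used is not known. The unit of the deposited values was inferred as FPKM, because 25806 of 25808 rows were whole multiples of 1 read within 0.001 reads. Rows with few reads pass this check easily, since the gene length was chosen to make the reads whole. Of 11807 rows over 300 reads, 2593 had an implied length equal to their GENCODE 29 exons. Symbols matched 25795 rows, and 24318 were in GENCODE 29, which gave gene type, GC content and length.

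Rows at 1 FPKM or more in at least 3 libraries were tested with limma 3.58.1 (R 4.3.3; trended, robust, two-sided) on log2(FPKM + 1), with Benjamini-Hochberg adjustment over 9631 rows. The GC and length correction used mgcv 1.9.3, a smooth surface fitted in each library. The main test was checked on simulated data, where the share of calls that fell on unchanged genes was above the threshold and small changes were recovered less often than large ones. No library pair was a duplicate. The members and lists were chosen with earlier results of these data known. Named genes are the 3 largest called rises and falls of each family, 12 always given, and the 2 smallest p-values of each list. Of the 12, PRPF8 was not among the 66 genes, so it has no value. Others are named after their values were seen. Alternatives were other pseudocounts, filters, scalings, moderation, a replicate block, each library left out, protein-coding rows alone and limma-voom. One result of the check of cell type markers is not reported here.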

Additional observations from a re-analysis of the deposited data

How the results depend on the processing

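The counts of genes called kept within 1.5 times of the reported ones under every alternative run: 19 to 29 splicing genes were higher (26 reported), 10 to 18 lower (12), and all genes called came to 3714 to 5533 (5178). Leaving out each library gave 22 to 27 higher and 11 to 13 lower. With the replicate block the counts were 24 and 12, and 19 and 18 with the GC and length correction as well. The deviations of same-numbered libraries correlated at 0.11, -0.03 and 0.01, so the numbers were not taken to pair libraries. Median centring moved the share of called genes that were higher from 50.1% to 38.6%, the median of all genes from -0.02 to -0.08, and the splicing genes to 21 higher and 13 lower; limma-voom gave 29 and 13. SRSF2 turned to -0.066 under the correction, with or without the replicate block, and SRSF4 went from 0.24 to -0.02 and lost its call. The correction also turned the calls of SRSF9, SF3A2, SNRNP70 and PCBP2, the last from higher (0.12) to lower (-0.18). The cause was not tested. Within families, the correction gave 5 lower HNRNP and 2 lower SRSF genes (1 and 1 reported), and with the block 5 higher SRSF genes and 1 higher SF3 gene (9 and 2 reported). A filter at 5 FPKM left 0 of 2 lower PRPF genes, as it removed PRPF38B and PRPF4B. The rows of HNRNPL, HNRNPR, SNRPN and PRPF31 held too few reads for a comparison; why was not tested.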
